A study of Mus musculus with 4 samples.

Results

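The colon of mice given trinitrobenzene sulfonic acid (TNBS) together with ginger extract was compared with the colon of mice given TNBS together with zingerone, a pungent phenolic compound that cooked ginger contains. The quantity followed throughout is the log2 difference between the 2 arrays, ginger minus zingerone, so that a positive value is a higher level on the ginger array and a negative value a higher level on the zingerone array. A gene was counted as measured where its mean level was at or above that of the median named probe on either array, an intensity of 270.2 on ginger and 272 on zingerone. This held for 9384 of 16637 named genes, of which 7414 had 1 probe and 1970 had several. All mice were female, 24 in 4 groups of 6, and tissue was taken on day 7. The strain was labelled BALB/c for the mock group and BALC/c for the other groups. Mock mice received 0.1 ml of 50% ethanol as vehicle alone, and the TNBS group received 250 mg/kg TNBS in that vehicle. The ginger group and the zingerone group received the same TNBS mixed with ginger extract or with zingerone, in amounts that the labels do not tie to an array. Each group was measured on 1 array with Cy3-labelled amplified RNA, so differences carry neither an error nor a test, and precision is limited by there being 1 array a side. Whether the RNA on an array came from a single mouse or from several is not stated in the labels. Doses were not matched, so the values of the ginger and the zingerone array are set side by side, and a difference between them is a difference between 2 arrays.

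TNBS given with ethanol is a hapten model of colitis in which the surface epithelium is damaged, neutrophils enter the wall and the wound edge is later covered again. Mature colonocytes absorb chloride and sodium and secrete bicarbonate, goblet cells make mucus, and both lie on a muscle coat with its own enteric neurons, which whole-colon RNA also contains. In injured colon the genes of mature colonocytes and of mitochondrial respiration are typically low, while chemokines, matrix proteases and squamous keratinocyte genes are high. Ginger extract holds many compounds besides zingerone, among them gingerols and shogaols. Defining genes of colon were high on both arrays: the goblet cell peptide Tff3 read 59389.7 on ginger and 64634 on zingerone, the colonocyte keratin Krt20 9804 on ginger and 11211 on zingerone, and the enteroendocrine peptide Pyy 32239 on ginger and 36266 on zingerone. In such tissue, fewer cells of a type and less RNA per cell cannot be told apart.

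Most genes stood close together on the 2 arrays. Over the 9384 measured genes the median difference was 0.02, the 5th percentile -0.59 and the 95th percentile 0.42 on the log2 scale. At least 2-fold higher on the ginger array were 24 genes, 0.256% of those measured, and at least 2-fold higher on the zingerone array were 69 genes, 0.735%. At 1.5-fold the counts were 146 genes (1.56%) on ginger and 482 genes (5.14%) on zingerone. With each array's 5th percentile subtracted as background, the 2-fold counts were 50 on ginger and 301 on zingerone. The gene nearest to the threshold inside it was 1700024G13Rik at 1.01 on the ginger side and Ccnh, which read 398 on ginger and 798 on zingerone, on the zingerone side. The nearest outside it were Ier3 at 0.99 and Fabp4 at -0.99. Of the 93 genes past 2-fold, 89 rested on 1 probe, beside 7414 of all 9384 measured genes. Of the 24 genes, 18 read higher on ginger than on both mock and TNBS. Of the 69 genes, 59 read higher on zingerone than on both. Over all 9384 measured genes these counts were 2467 and 2962, and the choice by fold favours such positions. TNBS was within 2-fold of mock for 19 of the 24, 35 of the 69 and 8496 of all measured genes. For 11 of the 24 and 22 of the 69 the lower array was below the named-probe median. Such genes counted as measured only through the array on which they were higher. Over all measured genes this held for 1198 of 9384. Among the 69 genes on the zingerone side were 4 absorptive colonocyte genes and 5 genes of the respiratory chain and ATP synthase. On the ginger side the lists of smooth muscle and of chemokines each had 1 member past 2-fold, Actg2 and Cxcl1, and those of matrix proteases and of keratins and the wound edge had 0.

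**Figure D1:**
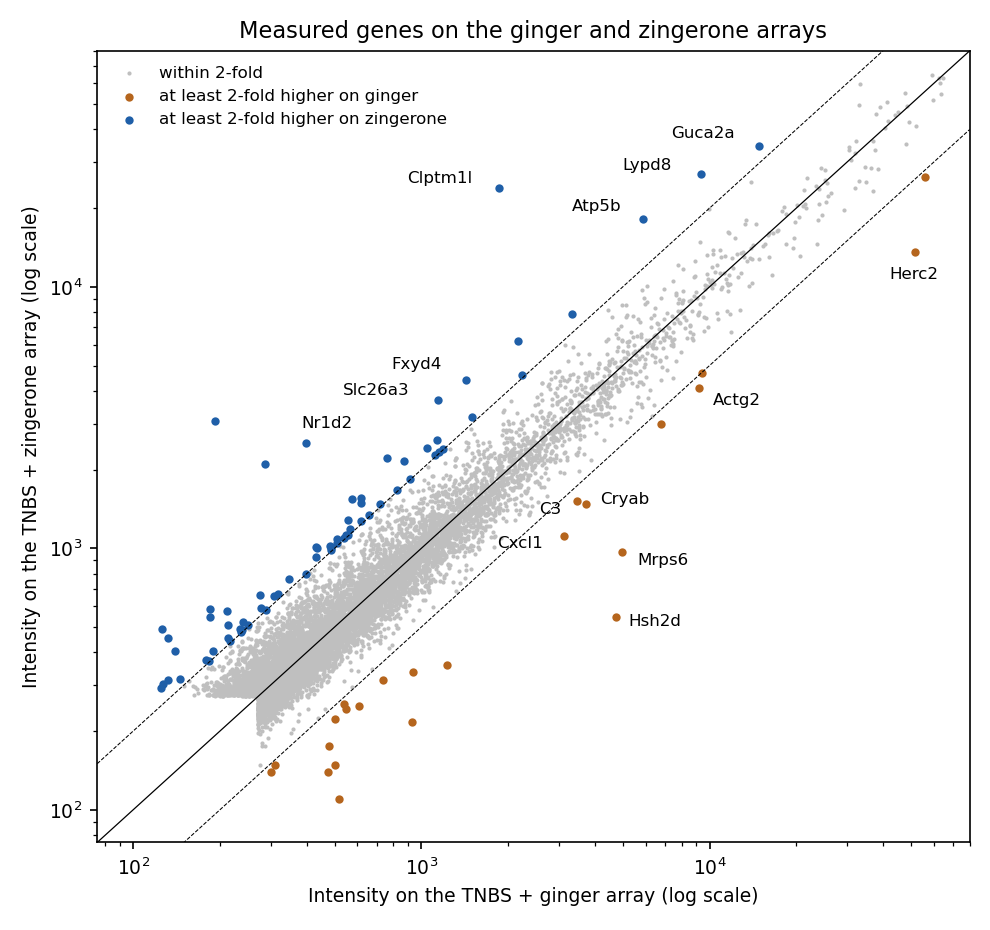
Intensity of each of 9384 measured genes on the TNBS + ginger array (horizontal, log scale) against the TNBS + zingerone array (vertical, log scale), 1 point per gene, with the line of equality and dashed lines at 2-fold. Brown points are the 24 genes at least 2-fold higher on ginger and blue points the 69 genes at least 2-fold higher on zingerone; most points lie within the dashed lines, and genes far out, such as Olfr389, Clptm1l and Hsh2d, rest on 1 probe each.

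The colonocyte transport genes Slc26a3 and Guca2a and the chemokine gene Cxcl1 were among the genes more than 2-fold apart, and their promoters are shown because Cdx2, the intestinal homeobox factor, was itself higher on the zingerone array, and because Cxcl1 is a known target of NF-kB. The windows run from 250 bases before to 50 bases after the start of transcription, 5′ to 3′ on the gene's strand, as given by RefSeq for build GRCm38.p6. Slc26a3 lies at chr12:31437969-31438268 (+), Guca2a at chr4:119637482-119637781 (+) and Cxcl1 at chr5:90890995-90891294 (+). Capitals mark matches to TTTAT, the core of the caudal homeobox motif, on either strand for Slc26a3 and Guca2a, and to the NF-kB consensus on either strand for Cxcl1.
Slc26a3: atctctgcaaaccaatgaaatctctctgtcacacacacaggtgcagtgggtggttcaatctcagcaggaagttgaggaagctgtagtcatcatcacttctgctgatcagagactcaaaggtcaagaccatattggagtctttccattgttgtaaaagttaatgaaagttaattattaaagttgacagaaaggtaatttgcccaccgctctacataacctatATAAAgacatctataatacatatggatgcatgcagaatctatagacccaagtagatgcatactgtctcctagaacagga
Guca2a: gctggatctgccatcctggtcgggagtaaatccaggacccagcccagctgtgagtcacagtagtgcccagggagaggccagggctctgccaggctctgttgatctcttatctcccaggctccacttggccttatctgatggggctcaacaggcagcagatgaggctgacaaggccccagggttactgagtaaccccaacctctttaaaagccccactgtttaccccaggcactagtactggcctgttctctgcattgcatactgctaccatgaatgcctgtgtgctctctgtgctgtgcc
Cxcl1: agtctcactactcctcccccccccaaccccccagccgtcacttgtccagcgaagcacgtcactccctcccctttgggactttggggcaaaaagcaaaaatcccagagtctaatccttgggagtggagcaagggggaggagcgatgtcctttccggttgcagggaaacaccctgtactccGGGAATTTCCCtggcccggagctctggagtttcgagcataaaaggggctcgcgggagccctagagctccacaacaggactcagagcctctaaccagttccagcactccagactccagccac
The Slc26a3 window held 1 match to TTTAT, which starts at base 222 and lies within a TATAAA, and the Guca2a window held 0. The Cxcl1 window held 2 overlapping matches to the NF-kB consensus, starting at bases 180 and 181. Over all 32851 promoter windows of the same length, 40.0% held TTTAT, 13.6% held TATAAA and 8.46% held the NF-kB consensus. The motifs were chosen with the gene values known, and a match is a description of the letters in the window.

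The chloride and bicarbonate exchanger of the colonic surface, Slc26a3, read 1145 on ginger and 3704 on zingerone, against 2377 on mock and 418 on TNBS. It was 3.23-fold higher on zingerone than on ginger (difference -1.69), and the zingerone array was the highest of the 4. Guanylin, Guca2a, the peptide that sets fluid secretion through the receptor guanylate cyclase C, read 14803 on ginger and 34596 on zingerone, against 20660 on mock and 2772 on TNBS, a difference of -1.22. Lypd8, a secreted surface protein that keeps flagellated bacteria off the colonic epithelium, read 9370.2 on ginger and 26942 on zingerone, against 34475 on mock and 11312 on TNBS, 2.88-fold higher on zingerone. For Slc26a3 and Guca2a the ginger array lay between TNBS and mock, whereas for Lypd8 it lay below both. The carbonic anhydrase Car1 read 660 on ginger and 1344 on zingerone, against 555 on mock and 357 on TNBS (difference -1.03), so that ginger lay a little above mock and zingerone above both. Car4, its membrane-bound relative, read 1915 on ginger and 2981 on zingerone, against 7778 on mock and 968 on TNBS, 1.56-fold apart and below mock on both arrays.

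Of 24 measured absorptive colonocyte genes these were 4 at least 2-fold higher on zingerone, and 5 were at least 1.5-fold higher, against 0 at either fold on ginger. Over all measured genes these shares were 0.735% and 5.14% on zingerone. The whole list was not shifted with them: 14 of its members were above on zingerone and 10 on ginger, with a median of -0.06 against 0.02 over all measured genes. Guanylin's relative uroguanylin, Guca2b, read 2645 on ginger and 2502 on zingerone, a difference of 0.08. The water channel Aqp8 read 1494 on ginger and 1373 on zingerone, the fatty acid binding protein Fabp2 1287 on ginger and 1296 on zingerone, the brush-border protein Vil1 2535 on ginger and 2400 on zingerone and the carbonic anhydrase Car2 8240 on ginger and 6954 on zingerone, and each was within 1.5-fold. All of Slc26a3, Lypd8, Guca2a, Car1 and Car4 rested on 1 probe each. Probes with neighbouring identifiers, treated further on, had medians of -0.24 beside Slc26a3 and -0.25 beside Guca2a; less these medians Slc26a3 was at -1.46 and Guca2a at -0.97, the latter short of 2-fold.

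Genes of sodium uptake and its control by aldosterone leaned to the zingerone side. The largest difference was that of Fxyd4, the corticosteroid-induced regulator of the sodium pump, which read 1432 on ginger and 4413 on zingerone, against 658 on mock and 1427 on TNBS. Ginger and TNBS were level for Fxyd4, and zingerone was 3.08-fold above ginger. Of 11 measured members of this list 10 were above on zingerone and 1 on ginger, with a median of -0.49, and 4 were past 1.5-fold on zingerone, against 5.14% of all measured genes. Fkbp5, an immunophilin induced by glucocorticoids, read 1260.4 on ginger and 2389.5 on zingerone, against 708 on mock and 2189 on TNBS. Hsd11b2, the enzyme that protects the aldosterone receptor from glucocorticoids, read 482 on ginger and 740.4 on zingerone (difference -0.62), and the kinase Sgk1, an aldosterone-induced activator of the sodium channel, 475 on ginger and 725 on zingerone (-0.61). The Sgk1 value is a mean of 2 probes of opposite sign, at -1.54 and 0.32, and the list's count past 1.5-fold includes it. The channel subunits themselves were closer, at -0.49 for Scnn1g, -0.28 for Scnn1a and -0.15 for Scnn1b.

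Further epithelial genes stood higher on zingerone. Cdx2, which specifies intestinal identity, read 487 on ginger and 988 on zingerone, against 564 on mock and 257 on TNBS, a difference of -1.02. Cldn8, a tight junction claudin of the distal colon that limits sodium back-leak, read 508 on ginger and 1085 on zingerone, against 844 on mock and 257 on TNBS (-1.09). Less the median of neighbouring probes these were -0.97 and -0.75, and neither then reached 2-fold. Both genes were lowest on TNBS, with ginger between TNBS and mock and zingerone above mock. Tight junction genes as a list stood level, with a median of -0.02 over 15 measured members and Cldn8 as the member past 1.5-fold. The adaptor Ndfip1, which recruits Nedd4-family ubiquitin ligases, read 761 on ginger and 2212 on zingerone, against 1145 on mock and 607 on TNBS, 2.91-fold apart. Alad, the enzyme that makes porphobilinogen for haem, read 3329.5 on ginger and 7864 on zingerone, against 4135 on mock and 1782 on TNBS, and Galnt6, which starts O-glycan chains on mucins, 566 on ginger and 1181 on zingerone, against 974 on mock and 252 on TNBS. Each of these 3 had TNBS lowest and zingerone above mock. Alad and Galnt6 were chosen after their values were seen.

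Goblet cell genes were level as a list, with a median of 0.02 over 18 measured members, 11 above on ginger and 7 on zingerone. The lectin-like Zg16, which aggregates gram-positive bacteria in the mucus, read 33341 on ginger and 59656 on zingerone, against 51922 on mock and 50081 on TNBS, so ginger was the lowest array. The resistin-like peptide Retnlb read 569 on ginger and 888 on zingerone, 1.56-fold higher on zingerone. The transcription factor Creb3l1 stood the other way at 1422 on ginger and 769.5 on zingerone, 1.85-fold higher on ginger. The mucin Muc2 had a mean difference of 0.17, but its 4 probes did not share a sign. They differed by -0.03, -0.00, 0.25 and 0.48, and the brightest of them read 9446 on ginger and 6773 on zingerone.

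Genes of oxidative phosphorylation, which serve the electron carriers and the ATP synthase of the inner mitochondrial membrane, included 5 at least 2-fold higher on zingerone. Atp5b, the catalytic subunit of the ATP synthase, read 5874 on ginger and 18134 on zingerone, against 13062 on mock and 3396 on TNBS, 3.09-fold higher on zingerone than on ginger. Cox7a1, a subunit of cytochrome c oxidase typical of muscle, read 1132 on ginger and 2594 on zingerone, against 2193 on mock and 650.5 on TNBS (-1.20), and Ndufb3, an accessory subunit of complex I, 1504 on ginger and 3186 on zingerone, against 3298 on mock and 766 on TNBS (-1.08). Uqcrfs1, the Rieske iron-sulfur protein of complex III, read 277 on ginger and 594 on zingerone, against 498 on mock and 200 on TNBS (-1.10), and Sdhaf1, an assembly factor of complex II, 308 on ginger and 655 on zingerone, against 514 on mock and 263 on TNBS (-1.09). In each of the 5 TNBS was lowest, ginger second lowest, and zingerone close to mock or above it.

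Over 74 measured genes of this kind, collected by symbol after the values were seen, the median was -0.14, with 51 above on zingerone and 23 on ginger. These genes include assembly factors as well as subunits. At 1.5-fold 10 were higher on zingerone and 0 on ginger, beside backgrounds of 5.14% and 1.56%. By complex, the median was -0.33 for the ATP synthase (9 of 10 above on zingerone) and -0.14 for complex III (7 of 7). It was -0.04 for the 39 genes of complex I and -0.03 for the 10 of cytochrome c oxidase. Within 1 complex members therefore differed from each other by more than the complexes did. Cox7a1 stood at -1.20 and Cox4i1, another subunit of the same enzyme, at 0.16 with 37402 on ginger and 33501 on zingerone. The fatty acid oxidation genes did not share the shift, with a median of 0.05 over 23 measured genes.

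**Figure D2:**
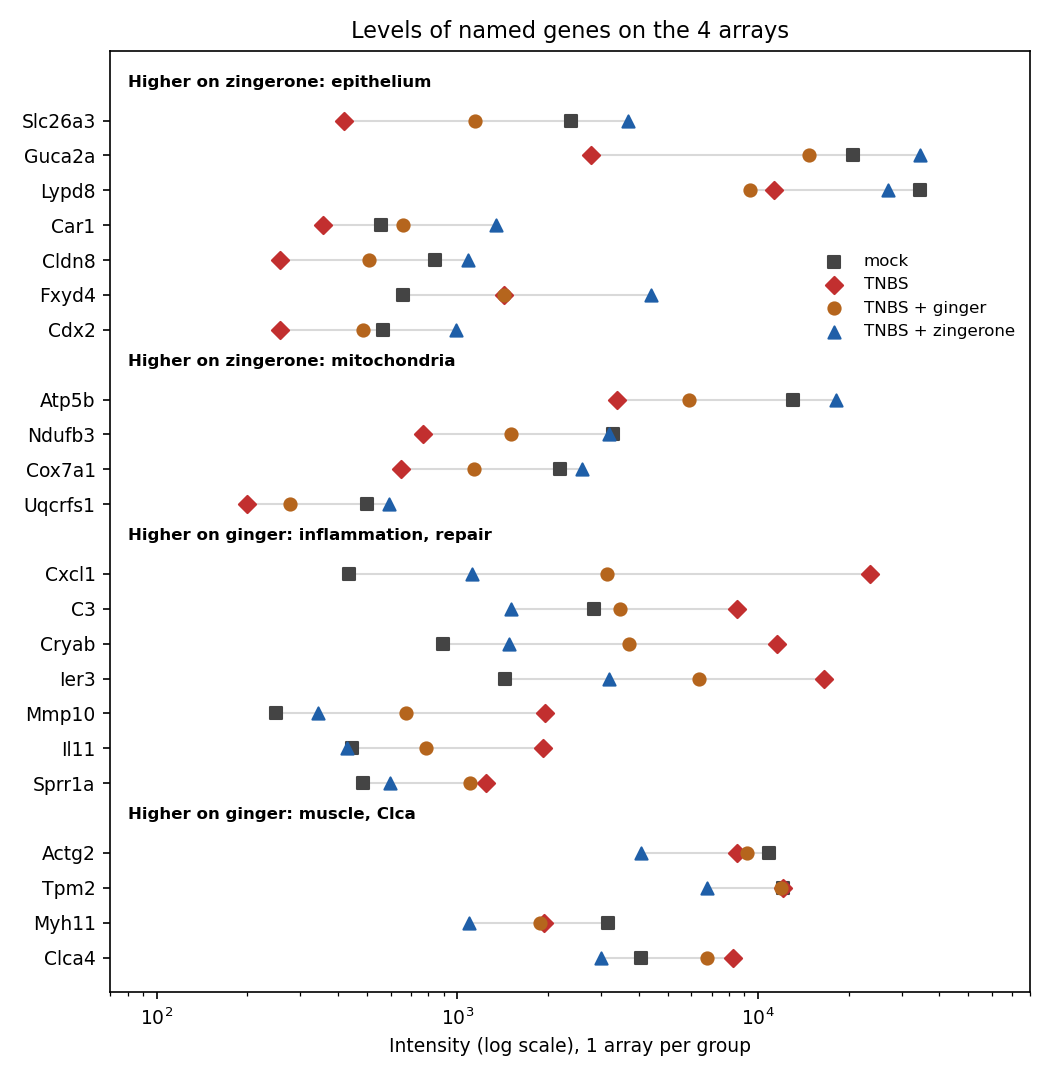
Intensity (horizontal, log scale) of 22 genes on the mock, TNBS, TNBS + ginger and TNBS + zingerone arrays, 1 symbol per array with no error since each group has 1 array. Zingerone is the highest array or second to mock in the epithelial and mitochondrial genes, and ginger lies between TNBS and zingerone in the inflammatory genes; for Actg2, Tpm2 and Myh11 zingerone is the lowest array.

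Genes were next grouped by how the TNBS array stood against the mock array, a comparison that shares no array with ginger against zingerone. This grouping was made after the values were seen. TNBS was at least 2-fold below mock for 431 measured genes (4.59%) and at least 2-fold above it for 457 (4.87%). Of the 431 genes low on TNBS, 30 were at least 2-fold higher on zingerone (6.96%) and 1 on ginger. At 1.5-fold these were 130 (30.2%) and 5 (1.16%), and 318 of the 431 (73.8%) were above on zingerone. Their median difference was -0.39, with quartiles of -0.64 and 0.01. Less mock, their medians were -0.67 on ginger and -0.26 on zingerone, against -1.29 on TNBS. The 457 genes high on TNBS lay nearer together, with a median difference of 0.13. Of these, 322 (70.5%) were above on ginger, 25 (5.47%) by 1.5-fold, and 13 (2.84%) were above on zingerone by 1.5-fold. Less mock, their medians were 0.67 on ginger and 0.54 on zingerone, against 1.51 on TNBS. The 8496 genes within 2-fold had a median of 0.02. A lean to ginger as large as that of the 457 genes was also present in olfactory and vomeronasal receptor genes, which are not typical of colon. These had a median of 0.19 over 229 measured, 166 of them above on ginger.

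**Figure D3:**
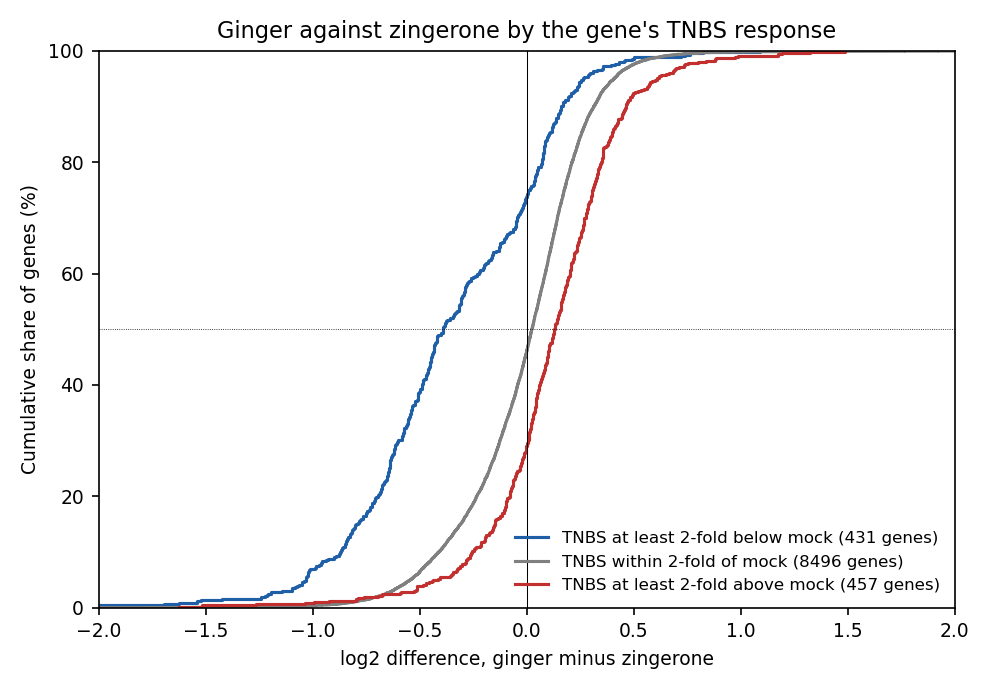
Cumulative share of genes in percent (vertical) by log2 difference, ginger minus zingerone (horizontal), for genes at least 2-fold below mock on TNBS (431, blue), within 2-fold (8496, grey) and at least 2-fold above mock on TNBS (457, red). The blue curve lies to the left, with a median of -0.39, and the red curve slightly to the right, with a median of 0.13.

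The shift of the genes low on TNBS was present when the genes were split into 4 equal bins by intensity, with medians of -0.46, -0.55, -0.45 and -0.30 from the dimmest to the brightest, over 31, 51, 106 and 243 genes. The medians of all measured genes were 0.02 to 0.03 in each bin. A second probe of the same gene did not show it. Among genes with 2 measured probes, 79 probes were at least 2-fold lower on TNBS than on mock, and their own median difference was -0.38. The other probe of the same gene had a median of -0.01, with 41 above on zingerone and 38 on ginger, although on TNBS against mock that other probe did move the same way, with a median of -0.40. For 80 probes high on TNBS the own median was 0.10 and that of the other probe 0.03.

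On the ginger side the largest difference among the chemokines was that of Cxcl1, the chemokine that draws neutrophils through CXCR2. Cxcl1 read 3132 on ginger and 1116 on zingerone, against 437 on mock and 23605 on TNBS, 2.81-fold higher on ginger than on zingerone (difference 1.49). Both arrays lay far below TNBS and above mock. Further CXCR2 ligands stood the same way and closer together: Cxcl5 read 1798 on ginger and 1117 on zingerone, against 301 on mock and 13394 on TNBS (0.69), Cxcl3 5666 on ginger and 3801 on zingerone, against 168 on mock and 37402 on TNBS (0.58) and Cxcl2 8788 on ginger and 6282 on zingerone, against 487 on mock and 39028 on TNBS (0.48). The monocyte chemokine Ccl2 read 392 on ginger and 296 on zingerone (0.41). Ccl3, a macrophage inflammatory protein, stood the other way. It read 617 on ginger and 1486 on zingerone, against 209 on mock and 1752 on TNBS, 2.41-fold higher on zingerone and close to TNBS there, while its relative Ccl4 was closer, at 5262 on ginger and 6198 on zingerone (-0.24). Ccl12, another monocyte chemokine, also stood higher on zingerone at 266 on ginger and 442 on zingerone. Of 26 measured chemokines 17 were above on ginger and 9 on zingerone, with a median of 0.14. The members past 1.5-fold numbered 3 and 2, beside backgrounds of 1.56% and 5.14%. The 3 on ginger were Cxcl1, Cxcl5 and Cxcl9. Cxcl9 was at 0.60, with probes at 0.33 and 0.88, and unlike Cxcl1 and Cxcl5 read lower on TNBS (359) than on mock (602).

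Complement C3, the central protein of the complement cascade, read 3460.2 on ginger and 1512 on zingerone, against 2847 on mock and 8509 on TNBS, 2.29-fold higher on ginger, with zingerone below mock. Cryab, a small heat shock protein, read 3714 on ginger and 1484 on zingerone, against 893 on mock and 11570.2 on TNBS (2.50-fold). Ier3, an immediate early gene that limits cell death, fell just short of 2-fold at 6339 on ginger and 3200 on zingerone, against 1435 on mock and 16498 on TNBS. The cytokine Il11, made by stromal cells in injured mucosa, read 788 on ginger and 428 on zingerone, against 447 on mock and 1918 on TNBS (0.88), with zingerone at the mock level. Cst7, an inhibitor of cathepsins made by leukocytes, read 608 on ginger and 249.5 on zingerone, against 299 on mock and 318 on TNBS. The eosinophil peroxidase Epx read 474 on ginger and 139.5 on zingerone, against 158 on mock and 162 on TNBS. For Cst7 and Epx the zingerone value was below the named-probe median of 272, so both counted as measured only through the ginger array. The eosinophil granule genes Prg2 and Prg3 differed by 0.40 and 0.14, and both were dim.

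Matrix proteases and their inhibitors had 5 of 19 measured members at least 1.5-fold higher on ginger and 0 on zingerone, beside backgrounds of 1.56% and 5.14%, with a median of 0.18. Mmp10, stromelysin 2, read 676 on ginger and 345 on zingerone, against 248 on mock and 1948 on TNBS (0.97). Mmp3, stromelysin 1, read 983 on ginger and 583 on zingerone, and Timp1, the inhibitor of metalloproteases, read 5296 on ginger and 3168 on zingerone, against 674 on mock and 24360 on TNBS (0.74). Plaur, the urokinase receptor, read 2176 on ginger and 1347 on zingerone, against 379 on mock and 8043 on TNBS. Farthest on the other side were Mmp7 at -0.40, Timp4 at -0.45 and Plau, urokinase itself, at -0.46, all within 1.5-fold.

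Keratins and genes of the squamous wound edge had a median of 0.34 over 21 measured members, 15 of them above on ginger, with 3 past 1.5-fold on ginger and 0 on zingerone, beside 1.56% and 5.14% over all measured genes. Less the neighbouring probes the median was 0.20. Sprr1a, a cross-linked envelope protein of squamous cells, read 1100.2 on ginger and 596 on zingerone, against 485 on mock and 1243 on TNBS, so ginger was close to TNBS and zingerone close to mock. Sprr2h read 572 on ginger and 344 on zingerone, against 187 on mock and 1996 on TNBS. The simple keratin Krt18 read 20562 on ginger and 13116 on zingerone, against 8565 on mock and 18134 on TNBS. All 5 measured Sprr genes were above on ginger, with a median of 0.62; this family was collected by symbol after the values were seen, and the signal of 1 member may be shared with its near-identical copies. Krt8, the partner of Krt18, was on the other side at 47587 on ginger and 54949 on zingerone, and the colonocyte keratin Krt20 was at -0.19.

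Most genes of IL-1 and NF-kB signalling lay within 1.5-fold, as did most measured genes. Il1b, the interleukin released by the inflammasome, read 4222 on ginger and 3196 on zingerone, against 719 on mock and 14298 on TNBS, 1.32-fold apart. Its receptors Il1r1 and Il1r2 differed by 0.14 and 0.16, and the receptor antagonist Il1rn by 0.67, with 1746 on ginger and 1101 on zingerone. The related interleukin Il18 and its binding protein Il18bp were both higher on zingerone, at -0.65 and -0.67. Tnf differed by 0.31. Of the NF-kB subunits, Rela differed by 0.02 and Nfkb1 by -0.45, with 302 on ginger and 413 on zingerone, against 370 on mock and 362 on TNBS, and the feedback inhibitor Tnfaip3 by 0.13. The NF-kB list had a median of 0.13 over 12 measured members with 0 past 1.5-fold in either direction. The IL-1 and IL-18 list had a median of 0.14 over 14. Past 1.5-fold it had 1 member on ginger, Il1rn, and 2 on zingerone, Il18 and Il18bp. Over all measured genes these shares were 1.56% and 5.14%. Less the neighbouring probes these medians were 0.04 and 0.03. Il1a, Il6 and Ptgs2 were not measured by the rule, and the only probe of the NF-kB inhibitor Nfkbia was set aside because it stood out on the TNBS array.

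Neutrophil genes were close together although Cxcl1 was not. S100a8 and S100a9, the calprotectin subunits, differed by 0.35 and 0.33, and the siderophore-binding Lcn2 read 8152 on ginger and 7699.8 on zingerone, against 290.2 on mock and 31578 on TNBS, level between ginger and zingerone. The neutrophil collagenase Mmp8 read 388 on ginger and 342 on zingerone, against 162 on mock and 4446 on TNBS, and the resistin-like Retnlg differed by 0.63. The list had a median of 0.16 over 13 measured members, 11 above on ginger, and of 0.06 less the neighbouring probes, with 10 above on ginger. The acute phase protein Saa3 differed by -0.13. The T cell receptor chains Cd3g and Cd3d stood apart from each other, at 0.82 and -0.65.

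Contractile genes of smooth muscle were above on ginger in 15 of 16 measured members, with a median of 0.41. Actg2, the enteric smooth muscle actin, read 9174 on ginger and 4091 on zingerone, against 10858 on mock and 8531 on TNBS, 2.24-fold higher on ginger than on zingerone. Tpm2, a tropomyosin, read 11904 on ginger and 6743 on zingerone, against 12125 on mock and 12093 on TNBS (0.82), and Myh11, the smooth muscle myosin heavy chain, 1887 on ginger and 1096 on zingerone, against 3172 on mock and 1934 on TNBS (0.78). In all 3 the zingerone array was the lowest of the 4, and for Tpm2 the other 3 arrays were level. Lmod1, a leiomodin, differed by 0.61 and Tpm1 by 0.59, so 5 members were past 1.5-fold on ginger and 0 on zingerone, beside 1.56% and 5.14% over all measured genes. Acta2, which fibroblasts also make, had a mean of 0.22 over 4 probes that did not share a sign. The brightest of them read 14466 on ginger and 7560.2 on zingerone (0.94), and the others were at 0.63, -0.32 and -0.36. Cnn1 was level at 0.01.

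Genes of enteric neurons leaned the same way but less, with a median of 0.25 over 15 measured members. Of these 12 were above on ginger and 3 on zingerone, beside 5014 of 9384 measured genes above on ginger. Olfactory and vomeronasal receptor genes had a median of 0.19. The neuronal genes Elavl3, Tubb3 and Syt1 were close to level at 0.07, 0.05 and -0.04, and Ncam1 was at -0.26. The vasodilator peptide Vip read 717 on ginger and 446 on zingerone, against 286 on mock and 942 on TNBS (0.68), and Gal, galanin, 1925 on ginger and 1305 on zingerone, against 652 on mock and 3469.5 on TNBS (0.56). Enteroendocrine genes had the same median of 0.25 over 13, with somatostatin, Sst, at 2380.2 on ginger and 1381 on zingerone. Fibroblast and matrix genes were level with a median of 0.05 over 22, of which the collagens Col1a2 and Col5a1 were higher on zingerone at -0.61 and -0.59, and Thbs4, a matrix thrombospondin, was so by 2.07-fold. Adipocyte genes leaned to zingerone, with a median of -0.49 over 12 and 4 past 1.5-fold, beside 5.14% over all measured genes. Less the neighbouring probes, which 11 of the 12 have, the median was -0.22 with 2 past 1.5-fold. Fabp4, the adipocyte fatty acid binding protein, read 9969 on ginger and 19855 on zingerone, against 4159.5 on mock and 45906 on TNBS, and leptin, Lep, 166 on ginger and 289 on zingerone. Summed over the measured members, the smooth muscle level was 51414 on ginger and 33489 on zingerone, against 51764 on mock and 54957 on TNBS. The summed level of enteric neurons was 12259 on ginger and 10469 on zingerone, against 9772 on mock and 15343 on TNBS. That of adipocytes was 19960 on ginger and 33224 on zingerone, against 13991 on mock and 68708 on TNBS, of which Fabp4 and Cfd made up the larger part. Without these the adipocyte sum was 5188 on ginger and 6498 on zingerone. The absorptive colonocyte sum was 76921 on ginger and 118370 on zingerone, against 115264 on mock and 54686 on TNBS. Most of the gap between ginger and zingerone in this sum came from Guca2a and Lypd8, each on 1 probe. Guca2a read 14803 on ginger and 34596 on zingerone, and Lypd8 9370 on ginger and 26942 on zingerone. No marker is at 0, since deposited values start at 74.2. As lists, smooth muscle genes thus stood higher on ginger and adipocyte genes higher on zingerone. The lean of the neuron list to ginger was smaller and was not shared by all of its general neuronal genes. The part of these tissues in the epithelial and inflammatory differences was not tested.

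**Figure D4:**
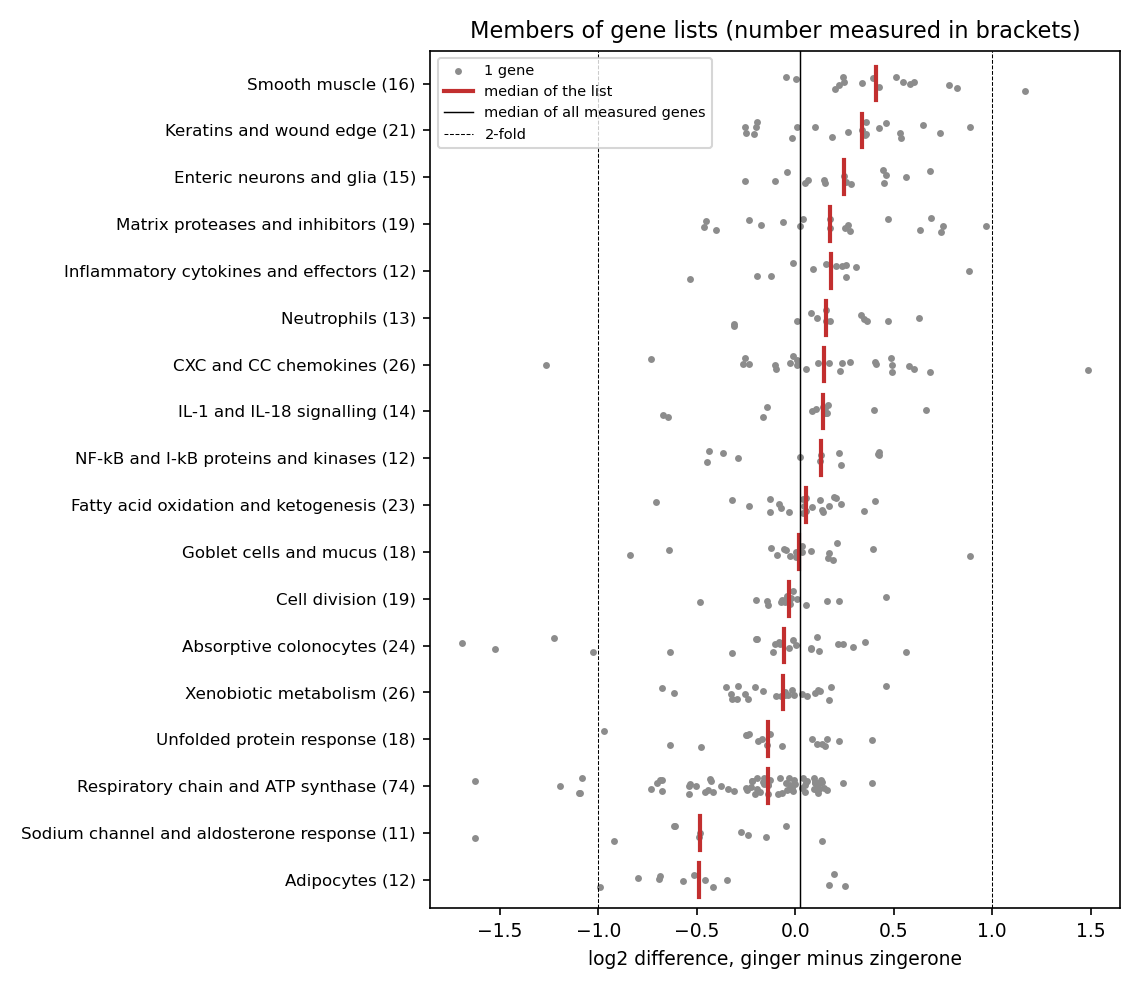
Log2 difference, ginger minus zingerone (horizontal), of each measured member of 18 gene lists (vertical, number measured in brackets), with the median of the list as a red bar, the median of all measured genes as a solid line and 2-fold as dashed lines. Smooth muscle (median 0.41) and keratins and wound edge (0.34) lie to the right, adipocytes and the sodium channel and aldosterone response (both -0.49) to the left, and most lists centre near 0.

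Several genes of other roles stood higher on zingerone. The interferon-induced Ifi44 read 178 on ginger and 375 on zingerone, against 949 on mock and 345 on TNBS. Ifit3 read 186 on ginger and 346 on zingerone, against 768 on mock and 278 on TNBS, but the interferon list as a whole had a median of 0.16, with 13 of 20 above on ginger, and of 0.07 less the neighbouring probes. Herpud1, which is induced by stress in the endoplasmic reticulum, read 521 on ginger and 1020.2 on zingerone, and Manf, induced likewise, 2913 on ginger and 4530 on zingerone, in a list with a median of -0.14 over 18 that was -0.01 less the neighbouring probes. The haemoglobin-binding Hp, a plasma protein, read 4949.8 on ginger and 8544 on zingerone, against 1195 on mock and 30534 on TNBS. The kinase adaptor Skap2 of leukocytes read 2168 on ginger and 6206 on zingerone, against 1119 on mock and 2959.8 on TNBS, above mock, TNBS and ginger. Dusp6, the phosphatase that switches off ERK, read 184 on ginger and 370 on zingerone, against 279 on mock and 176 on TNBS, but neighbouring probes had a median of -0.72, and less this median Dusp6 was at -0.28. Genes of antioxidant defence were close: Hmox1, haem oxygenase, differed by 0.40 and the quinone reductase Nqo1 by 0.31. The NRF2 target list had a median of 0.07 over 21, xenobiotic metabolism -0.06 over 26, cell division -0.03 over 19 and the reference genes 0.03 over 9. The polymeric immunoglobulin receptor Pigr differed by 0.04. Further list members past 1.5-fold on zingerone were Entpd2, Apob, Slc25a20, Zfp36, Cidec, Sult1d1, C1qc, Oasl1, Hoxd10, Alpi, Prom1, Cyp2s1, Txnrd1 and Tkt, with differences from -0.79 for Entpd2 to -0.59 for Tkt. The tachykinin Tac2 was higher on ginger, at 0.70.

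Clca4 and Clca4a, chloride channel accessory proteins of the intestinal surface, stood higher on ginger. They are closely related copies, and their signal may be shared. Clca4 read 6761 on ginger and 2992 on zingerone, against 4089 on mock and 8240 on TNBS, 2.26-fold higher on ginger. Clca4a had 2 measured probes at 0.77 and 0.95 and a mean of 0.56 with a further, dim probe, and it is 1 of 4 genes whose measured probes all passed 1.5-fold the same way. The others were Actc1, the cardiac actin, at 0.61 and 1.04, the orphan receptor Gpr135 at 0.80 and 0.60, and, higher on zingerone, Gnb1l at -0.61 and -0.66. The 4 were chosen after their values were seen. The gasdermin Gsdmc4 of the surface epithelium read 2414 on ginger and 1446 on zingerone, against 4101 on mock and 416 on TNBS, low on TNBS and higher on ginger than on zingerone, against the direction of most genes low on TNBS.

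The genes with the largest differences were of mixed or unrelated roles, and those given here rested on 1 probe or on 1 of 2. The largest one counted was that of the olfactory receptor Olfr389, which read 192 on ginger and 3082 on zingerone, against 1776 on mock and 172 on TNBS. On the same side Clptm1l, a membrane protein of the endoplasmic reticulum, read 1859.5 on ginger and 23979.5 on zingerone, against 21509.5 on mock and 1916 on TNBS, so that, as for Olfr389, mock and zingerone stood together and TNBS and ginger together. Mex3d, an RNA-binding ubiquitin ligase, read 286 on ginger and 2105 on zingerone, against 227 on mock and 363 on TNBS, high on zingerone alone. On ginger, Hsh2d, a haematopoietic adaptor, read 4736 on ginger and 544 on zingerone, against 677 on mock and 893 on TNBS, and Herc2, a giant ubiquitin ligase, 51505 on ginger and 13599 on zingerone, against 45416 on mock and 46291 on TNBS. Mrps6, a protein of the mitochondrial ribosome, read 4987 on ginger and 964 on zingerone, against 4129 on mock and 2586 on TNBS, low on zingerone alone. Hsh2d and Mrps6 were the 2 genes at least 1.5-fold above TNBS on ginger and at least 1.5-fold below it on zingerone. Nr1d2, a nuclear receptor of the clock, had a mean difference of -2.67, which came from 1 of its 2 probes. That probe read 37402 on zingerone and between 719 and 1044 on the other arrays, and the other probe read 172 on zingerone. Zfp64, Slc22a6 and Fhad1, the other genes past 2-fold that have 2 probes, likewise each had 1 probe that was bright on 1 array. These probes, like that of Mex3d, missed the rule for setting a probe aside and were counted. So did others bright on 1 array alone, among them Slc10a1, Rgs12 and Lancl3 on ginger and Hus1b and Prmt6 on zingerone. Slc10a1, for example, read 516.5 on ginger and between 110 and 134 on the other arrays. With a single-array limit of 3-fold, 36 of the 47 named genes past 2-fold kept a value. The remaining genes of the 20 largest differences on ginger were Slc10a1, Rgs12, Lancl3, Fbxl12, Adam26a, Tsga10ip, Rgs20 and Fbxo48, from 2.23 for Slc10a1 to 1.11 for Fbxo48. On zingerone they were Hus1b, Lgsn, Prmt6, Gldn, Krtap7-1, Smim6, Sdcbp2, Rnasek and Usp3, from -1.96 for Hus1b to -1.27 for Usp3. Receptor genes were left out of these 20.

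Where a gene had several probes, they gave the only repeat of a measurement within an array, and they repeated poorly. Over 1099 genes with several measured probes the median gap between probes was 0.26 on the log2 scale and the 95th percentile 0.95, and all probes shared a sign in 599 (54.5%). At least 1 probe passed 2-fold in 23 genes, all probes did so in 0, and all shared a sign in 13 of the 23. At 1.5-fold the counts were 154 and 4. Across the 991 genes with 2 measured probes, Pearson's r between the probes was 0.09 for ginger minus zingerone and 0.31 for TNBS minus mock, given as a description across genes on the same arrays.

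**Figure D5:**
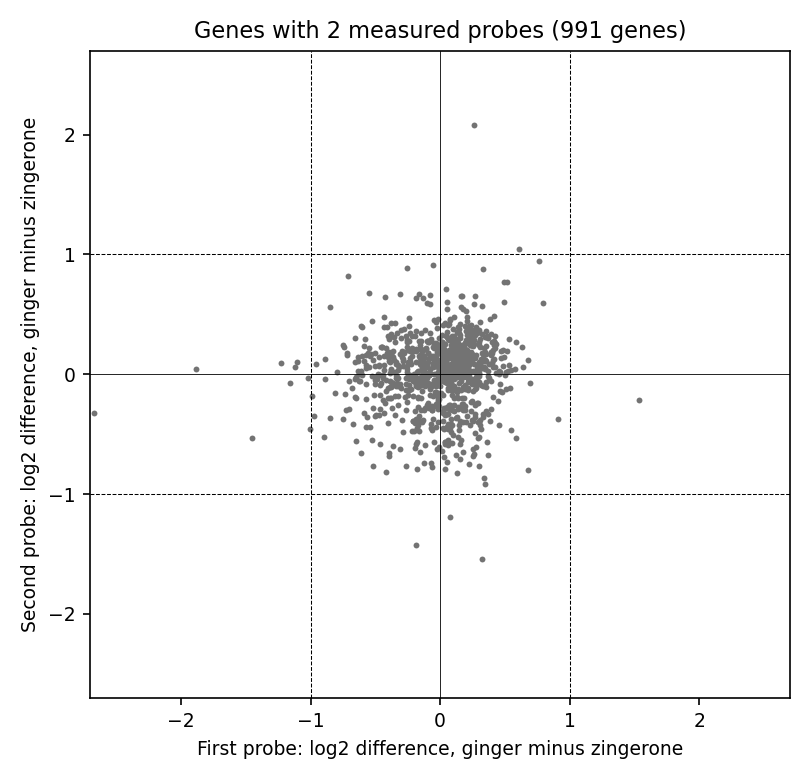
Log2 difference, ginger minus zingerone, of one probe (horizontal) and the other probe (vertical) of 991 genes with 2 measured probes, 1 point per gene, with dashed lines at 2-fold. Points form a cloud around 0 with no clear diagonal (Pearson's r 0.09), and in none of these genes do both probes pass 2-fold.

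Differences also followed the probe identifiers, which was noticed in these data. For each probe the median difference of the probes 8 and 16 identifier numbers away on either side, of other genes, was taken. Over 14003 measured probes Spearman's rho between a probe and its neighbours was 0.41 for ginger minus zingerone and 0.24 for TNBS minus mock. Over all probes it was 0.35 at a distance of 8, 0.10 at 9 and 0.00 at 100. For 2 probes of 1 gene the same measure was 0.11. The files used here do not give the place of a probe on the array, and what these neighbours share was not tested. Neighbours of genes low on TNBS had a median of -0.05, and those genes less their neighbours -0.26, against 0.04 and -0.02 over all measured genes. Less their neighbours, the smooth muscle median was 0.31 with 16 of 16 above on ginger, the respiratory chain median -0.14 with 58 of 74 above on zingerone, and the sodium and aldosterone median -0.41 with 9 of 11. The adipocyte, keratin, neutrophil, interferon, IL-1, NF-kB and unfolded protein response medians each shrank by more than 1.5 times, to the values given beside those lists.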

How the data were processed

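Per the labels, RNA was extracted from colon, 5 µg was amplified and labelled with Cy3, and 4 arrays were hybridised, 1 per group. The deposited table holds linear intensity values, 1 per probe on each array. Of software, the submitters' processing notes give limma, with no version or role, and how background and scale were treated is not given in the sources used here. Once sorted, the deposited intensity values of the arrays agree within 1.84%, and the lowest is 74.2; any background left in the values would make folds of dim genes smaller, which was not tested.

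Of 29922 probes, 21020 have 1 gene symbol in the platform annotation, none has several, and 8902 are unnamed; 17558 symbols were current, 3410 were updated and 52 were kept, by RefSeq GRCm38.p6. Values were log2-transformed without a pseudocount and averaged over a gene's probes. A probe was set aside where 1 array stood 4-fold or more from the nearest other array and the other 3 lay within 0.5 (log2): 43 named probes, leaving 16610 genes. With 1 array per group no test was run.

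The comparison, its lists (45, with 2 more collected by symbol) and the settings were chosen with earlier results of these data known. The rule for names took the 20 largest differences each way (olfactory and vomeronasal receptors and symbols that describe no gene skipped), up to 3 members per list past 1.5-fold, genes opposite against TNBS, and a fixed list of genes; others are named as list members, or said to be chosen after their values were seen. Steps were checked on simulated data. Python 3.11.15, numpy 2.4.6 and pandas 2.3.3 were used. Alternatives were other scalings, filters, single-array limits, probe choices and folds.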

Additional observations from a re-analysis of the deposited data

Results flagged for a closer look

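Hsh2d and Mrps6 moved in opposite directions against the TNBS array, up on ginger and down on zingerone by at least 1.5-fold, with ginger minus zingerone differences of 3.12 and 2.37 (log2). Each rests on 1 probe and 1 array a side, and the difference was not tested.

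Probes that met the 4-fold rule on 1 array, with the other arrays within 0.5 (log2), were set aside and enter no comparison. Bright on ginger alone were Asph at an intensity of 2275, Cnot1 at 1294, Folr2 at 1264, Gng8 at 2373, Hsd17b14 at 2208, Mesp1 at 5979, Natd1 at 1298, Opn1sw at 1936, Ryr1 at 1196, Wfikkn2 at 915 and Wif1 at 446. Bright on zingerone alone were Armh3 at 1263, Cdk19 at 9272, Dcaf17 at 5716, Med13l at 907, Mrps14 at 628, Olfr868 at 23605 and Ugt1a1 at 2051. The same rule set aside 9 probes bright on TNBS, 8 bright on mock, 7 dim on mock and 1 dim on zingerone. The last is the probe of Tmem258, which read 2753 on ginger and 121 on zingerone, a difference of 4.50 that exceeds every counted difference on the ginger side.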

How the results depend on the processing

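The main counts were 24 genes at least 2-fold higher on ginger and 69 on zingerone. At 1.5-fold they were 146 and 482. With each array's 5th percentile subtracted they were 50 and 301, the genes moving oppositely against TNBS numbered 7 in place of 2, and genes whose probes all passed 1.5-fold the same way 17 in place of 4. With a single-array limit of 3-fold, 1 gene moved oppositely, and of 47 named genes past 2-fold 11 had no value while 35 of the other 36 stayed past it. The other settings kept both 2-fold counts within 1.5 times. The median of genes low on TNBS was -0.26 with the median of neighbouring probes subtracted, a setting added after seeing the data, against -0.39. Of the 46 named genes with a value there, 6 then missed 2-fold, Guca2a, Cdx2, Cldn8, Dusp6, Rgs20 and Fbxo48, and no named gene past 2-fold changed sign under any of 11 settings. Medians of the goblet cell, fibroblast and reference gene lists changed sign in 1, 2 and 3 of 11 settings. Those of the posterior Hox, small intestine, B and plasma cell, MHC class II, skeletal muscle, Cajal cell and TRP channel lists did so in 1. Those of the endothelium and mast cell lists did so in 2. The sodium and aldosterone median kept its sign and ranged from -0.50 to -0.24. Intensity near the lower end limits the folds of dim genes. No paired analysis was possible because each group has 1 array.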

Other observations

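Probes without a gene name, like named genes, were more often at least 2-fold higher on zingerone than at least 2-fold higher on ginger. Of 8902 unnamed probes 2786 reached the named-probe median on either array, and of these 11 were at least 2-fold higher on ginger and 26 on zingerone. Among the 9384 measured named genes these were 24 (0.256%) and 69 (0.735%).

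Olfactory and vomeronasal receptor genes, which are not typical of colon, had 229 measured members with a median difference of 0.19, 166 of them above on ginger, beside 5014 of 9384 genes over all. Past 2-fold, 1 was higher on ginger and 3 on zingerone. The medians of the chemokine, IL-1, NF-kB and neutrophil lists, at 0.14, 0.14, 0.13 and 0.16, were no higher than that of these receptors. The same held for the interferon list at 0.16 and the matrix protease list at 0.18. Those of the enteric neuron and enteroendocrine lists, both 0.25, were a little above it.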
